A study of Mus musculus with 9 samples.

Results

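The genes described here handle arginine and the polyamines made from it in mouse macrophages grown from bone marrow. They are Slc7a1, Slc7a2, Arg2, Nos2, Odc1, Oaz1, Azin1, Srm, Sms and Sat1. The set was defined by gene symbol, with earlier results of these data known. Of these 10 genes, 9 had a named probe set in the deposited table, each a single one, out of 19505 genes with a named probe set. Oaz1 was not analysed here. The 7 genes Slc7a1, Slc7a2, Odc1, Azin1, Srm, Sms and Sat1 were bright enough to be tested, among 10042 genes in all. Arg2 and Nos2 lay below the brightness limit, the median over all probe sets of their mean log2 level (5.66), and are described without counting them among the tested genes. Arg1, the arginase induced by IL-4, is given beside them because it uses the same substrate.

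Arginine enters macrophages mainly through cationic amino acid transporters, of which CAT1, encoded by Slc7a1, is present in most cell types, while CAT2, encoded by Slc7a2, is induced on activation. Inside the cell, nitric oxide synthase (Nos2) turns arginine into nitric oxide and citrulline, and the arginases (Arg1 in the cytosol, Arg2 in mitochondria) turn it into ornithine and urea. Ornithine decarboxylase (Odc1) makes the polyamine putrescine from ornithine, and spermidine synthase (Srm) and spermine synthase (Sms) extend putrescine to spermidine and spermine. Antizyme (Oaz1) sends ornithine decarboxylase to the proteasome, the antizyme inhibitor (Azin1) protects the decarboxylase from antizyme, and the acetyltransferase Sat1 starts polyamine breakdown and export. In macrophages, IL-4 favours the arginase branch and bacterial products with interferon gamma favour the Nos2 branch.

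All arrays came from wild-type C57BL/6 bone marrow cells that were cultured for 7 days with macrophage colony-stimulating factor and then received 20 ng/ml IL-4 for 24 h. That factor is given as 10 ng/ml in one place of the labels and as 20 ng/ml in another. Each group held 3 arrays: vehicle; lipocalin 2 (LCN2), a secreted protein that binds iron-carrying siderophores, added on day 7 at an unstated dose; and 150 ng/ml rmLCN2 from day 0. The sources used here do not say if the 3 arrays of a treatment stand for different mice, dishes or days, so the p-values measure only how these arrays vary, which may be technical. No group without IL-4 was among the arrays, so the response to IL-4 itself was not measured.

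The titles number the arrays of each group from 1 to 3, and the arrays numbered 1 stood apart in every group. The first principal component, which took 62.5% of the variance over the tested genes, separated them from the other 6 arrays. The cell type label was checked with marker genes. The 8 macrophage markers with a probe set were all above the brightness limit, with a mean log2 level between 10.35 and 10.63 on every array, whereas all 8 T and NK cell markers and all 6 B cell markers lay below it. Markers of related cells were also above the limit: 8 of 10 for neutrophils, 7 of 9 for osteoclasts, 5 of 6 for monocytes, 4 of 9 for dendritic cells, 4 of 7 for progenitors and 3 of 4 for megakaryocytes. So were 3 of 8 markers of stromal cells, 2 of 7 of mast cells and basophils, and 1 of 3 of erythroid cells. In such bulk samples, fewer cells of a type and less RNA per cell cannot be told apart.

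The only differences among these genes that passed the test followed the title number and not the treatment. Over all genes tested, 33.2% passed by title number, so this is not particular to these genes. Slc7a1, Sms and Azin1 were lower on the arrays numbered 1 than on those numbered 2 and 3, with log2 differences of -0.88, -0.59 and -0.33 (1.83-fold for Slc7a1 and 1.26-fold for Azin1), and Arg1 was lower by 1.56-fold. The Sms and Azin1 calls ended when the vehicle array numbered 1 was left out. Odc1, Srm, Slc7a2 and Sat1 did not pass the test by title number. No gene of the group passed in any comparison of LCN2 with vehicle. The promoter windows of the genes that carry the first result are shown here where the reference tables hold them. They run from 250 bases before to 50 bases after a gene's annotated start (RefSeq, GRCm38.p6, minus strand, 5′ to 3′). Both genes have another annotated start, and 1 window of each is shown: Sms at chrX:157492238-157492537, the window with the motif, and Slc7a1 at chr5:148399855-148400154. Capitals mark the letters CACGTG, the E-box that MYC and related factors bind.
Sms: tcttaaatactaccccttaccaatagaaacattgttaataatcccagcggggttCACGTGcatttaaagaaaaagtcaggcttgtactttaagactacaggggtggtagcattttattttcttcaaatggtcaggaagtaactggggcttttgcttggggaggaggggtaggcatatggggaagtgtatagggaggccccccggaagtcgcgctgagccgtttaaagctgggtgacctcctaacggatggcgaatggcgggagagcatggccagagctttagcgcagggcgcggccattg
Slc7a1: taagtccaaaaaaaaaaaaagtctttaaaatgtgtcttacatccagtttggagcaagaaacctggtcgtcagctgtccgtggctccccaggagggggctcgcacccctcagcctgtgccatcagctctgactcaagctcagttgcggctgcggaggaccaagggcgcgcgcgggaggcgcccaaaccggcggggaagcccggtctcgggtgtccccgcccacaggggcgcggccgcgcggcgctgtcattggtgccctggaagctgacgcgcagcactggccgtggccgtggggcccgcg

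Windows were found for 5 of the 10 genes (Slc7a1, Odc1, Oaz1, Sat1 and Sms), 7 windows in all, and those of Slc7a2, Arg2, Nos2, Srm and Azin1 were not used. Both strands were searched for CACGTG and for the STAT6 motif (TTC and GAA with any 4 bases between them), and both motifs read the same on either strand. CACGTG occurred once, in the Sms window shown, 196 bases before the start, and not in the other Sms window (chrX:157491319-157491618) or either Slc7a1 window, and the STAT6 motif in none of the 7. Of all 32851 windows of this length, 7.15% held CACGTG and 6.95% held the STAT6 motif. A match is only a description of the sequence.

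Of the transporters, Slc7a1 (chr5:148327410-148399904, GRCm38.p6) changed with the title number. Its log2 level was 8.41, 9.32 and 9.38 on the vehicle arrays numbered 1, 2 and 3. It was 8.27, 8.88 and 9.34 with LCN2 from day 7, and 8.38, 9.14 and 9.31 with LCN2 from day 0. In each group the array numbered 1 was the lowest, and the arrays numbered 1 did not overlap the others. The level was 8.35 ± 0.08 (SD, n = 3 arrays) on number 1, 9.11 ± 0.22 on number 2 and 9.34 ± 0.04 on number 3. The difference of number 1 from the mean of numbers 2 and 3 was -0.88 ± 0.09 (SE; limma, adjusted p = 0.000421), in the same direction in 3 of 3 groups. Between numbers 2 and 3 it differed by -0.23 ± 0.10 and did not pass (limma, adjusted p = 1.00).

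Slc7a2 (chr8:40862341-40922070), the inducible transporter, gave another pattern. Its level was 10.89, 10.72 and 10.66 with vehicle, 10.79, 10.58 and 10.68 with LCN2 from day 7, and 10.41, 10.66 and 10.59 with LCN2 from day 0. The array numbered 1 was the highest with vehicle and with LCN2 from day 7 and the lowest with LCN2 from day 0. The difference of number 1 from the others was 0.05 ± 0.10 (limma, adjusted p = 0.729). Whether the shift by number differed between the transporters was not tested.

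**Figure D1:**
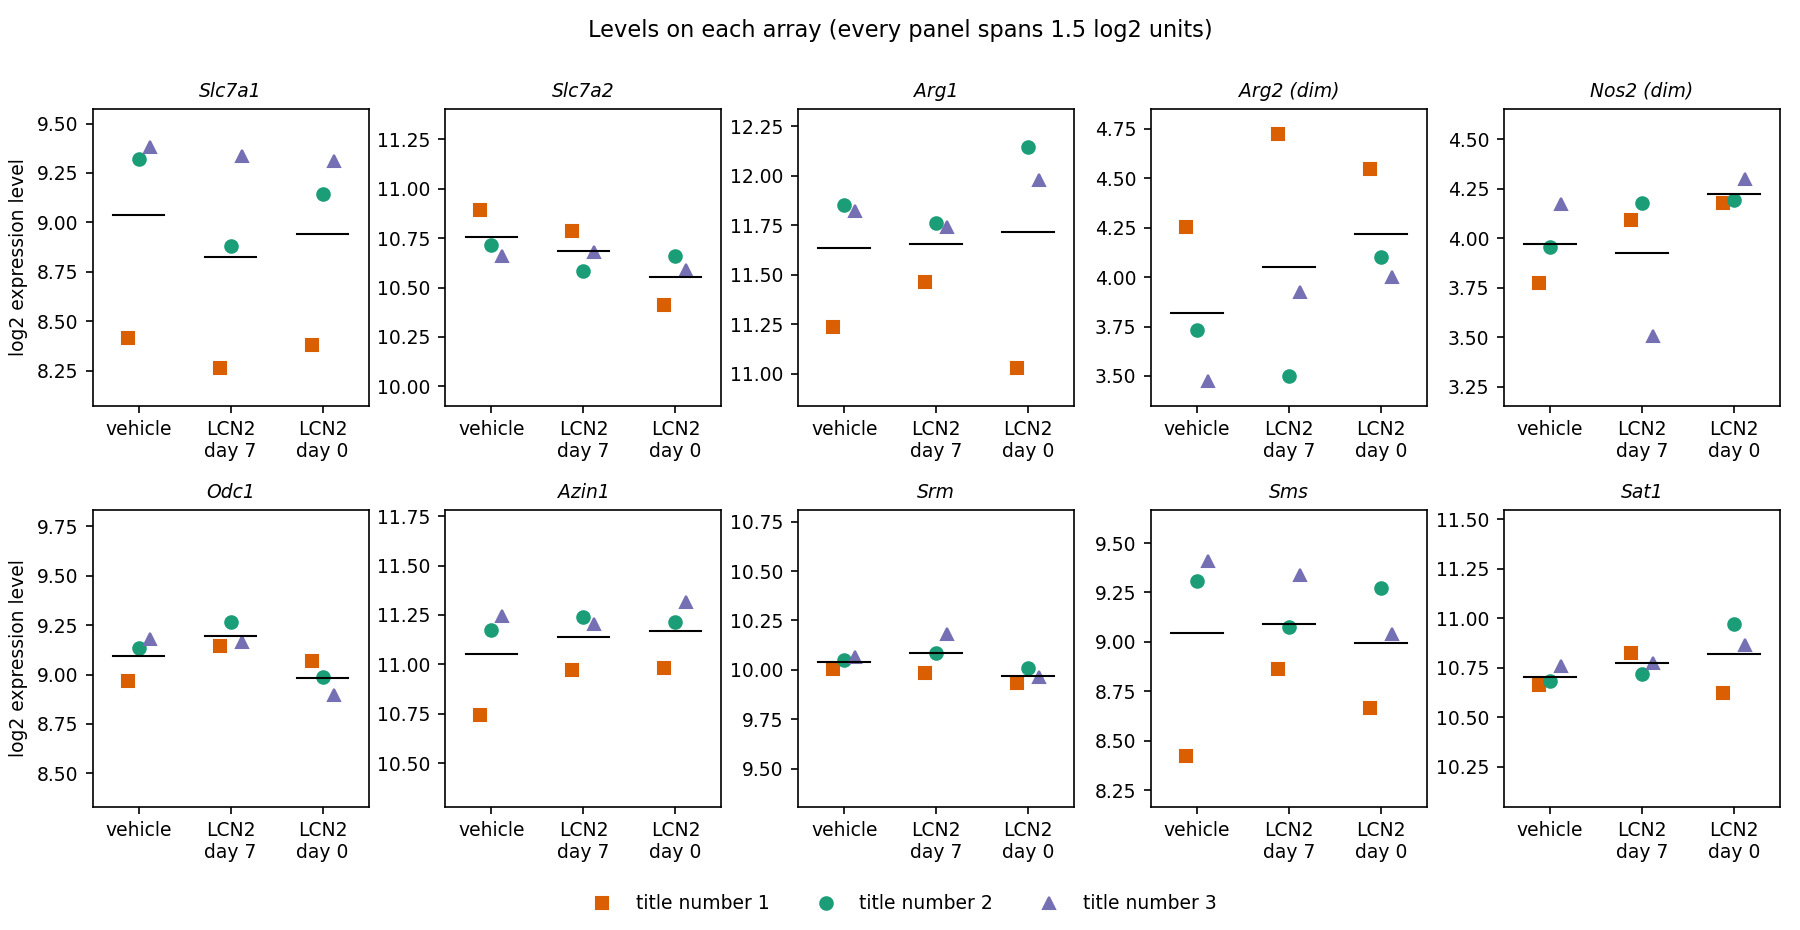
Log2 expression level (y axis) of the 9 genes with a probe set and of Arg1 on each array, by treatment group (x axis). Squares, circles and triangles are arrays with title number 1, 2 and 3, horizontal lines are group means, and every panel spans the same number of log2 units. Squares lie lowest in every group for Slc7a1, Sms, Azin1, Arg1 and, by less, Srm, and highest for Arg2. Panels headed (dim) show genes below the brightness limit.

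The enzymes that use arginine split in brightness. Arg1 was bright, at 11.23, 11.85 and 11.82 with vehicle, 11.47, 11.76 and 11.74 with LCN2 from day 7, and 11.03, 12.15 and 11.98 with LCN2 from day 0. Every array numbered 1 lay below every other array, and the difference was -0.64 ± 0.13 (limma, adjusted p = 0.00717). Nos2 lay between 3.50 and 4.30 on all 9 arrays, far under the brightness limit, and the table carries no measure of detection. With no limit on brightness, Nos2 differed by -0.04 ± 0.16 between number 1 and the others (limma, adjusted p = 0.917).

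Arg2, the mitochondrial arginase, was also below the limit. It stood at 4.26, 4.73 and 4.55 on the arrays numbered 1 of the vehicle, day 7 and day 0 groups, and between 3.47 and 4.10 on the other 6. These did not overlap, and the direction was opposite to that of Arg1. Of the genes above the limit, 35.4% had no such overlap, and that share is not given for dimmer genes. With no limit on brightness Arg2 differed by 0.72 ± 0.14 (limma, adjusted p = 0.00918), in a fit of 19505 genes that called 13.9% of them.

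Of the synthesis enzymes, Odc1 and Srm did not pass by title number. Odc1 (chr12:17544808-17551502) lay between 8.90 and 9.27 on all 9 arrays, with 9.06 ± 0.09 on number 1, 9.13 ± 0.14 on number 2 and 9.08 ± 0.16 on number 3. Number 1 differed from the others by -0.05 ± 0.09 (limma, adjusted p = 0.723), with a 95% confidence interval from -0.24 to 0.15. Srm (chr4:148591513-148594619) spanned 0.25 log2 units over all arrays, the narrowest range of the 9 genes. Its array numbered 1 was the lowest in each group, but the arrays numbered 1 overlapped the others. Srm differed by number by -0.09 ± 0.08 (limma, adjusted p = 0.415, interval -0.26 to 0.09). These intervals bound a change of Odc1 or Srm well below the 1.83-fold of Slc7a1.

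Sms (chrX:157443851-157492287), the last enzyme of the pathway, was lower on number 1. With vehicle it stood at 8.42, 9.31 and 9.41 on numbers 1, 2 and 3, with LCN2 from day 7 at 8.86, 9.07 and 9.34, and with LCN2 from day 0 at 8.67, 9.27 and 9.04. The array numbered 1 was again lowest in each group, with no overlap with the other 6. The difference was -0.59 ± 0.13 (limma, adjusted p = 0.00983), and it was -0.93, -0.34 and -0.49 within the vehicle, day 7 and day 0 groups. Without the vehicle array numbered 1 the call ended (-0.42, adjusted p = 0.0673).

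Of the genes that control polyamine levels, Azin1 (chr15:38487430-38519294) was called and Sat1 (chrX:155213126-155216449) was not. Azin1 stood at 10.75, 11.17 and 11.24 with vehicle, 10.97, 11.24 and 11.21 with LCN2 from day 7, and 10.98, 11.22 and 11.32 with LCN2 from day 0. All 3 arrays numbered 1 lay below the rest, with a difference of -0.33 ± 0.08 (limma, adjusted p = 0.0146). The call ended without the vehicle array numbered 1 (-0.27, adjusted p = 0.108) or without the day 0 array numbered 1 (-0.36, adjusted p = 0.0517). Sat1 lay between 10.62 and 10.97 on all arrays and differed by -0.09 ± 0.09 (limma, adjusted p = 0.479), lower on number 1 in 2 of 3 groups.

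By title number, 3 of the 7 tested genes were called, all 3 lower on number 1. Over all 10042 genes, 33.2% were called, with 22.1% lower and 11% higher on number 1. The arrays numbered 1 did not overlap the other 6 for 3 of the 7 genes, and for 35.4% of all genes. Beside these shares, 3 of 7 is not a result particular to arginine and polyamine genes. The choice of number 1 against the others was made with earlier results of these data known. Between numbers 2 and 3, limma called 0 of the 7 genes and 0% of all genes, with 0 of the 7 and 310 of all at an unadjusted p under 0.05.

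**Figure D2:**
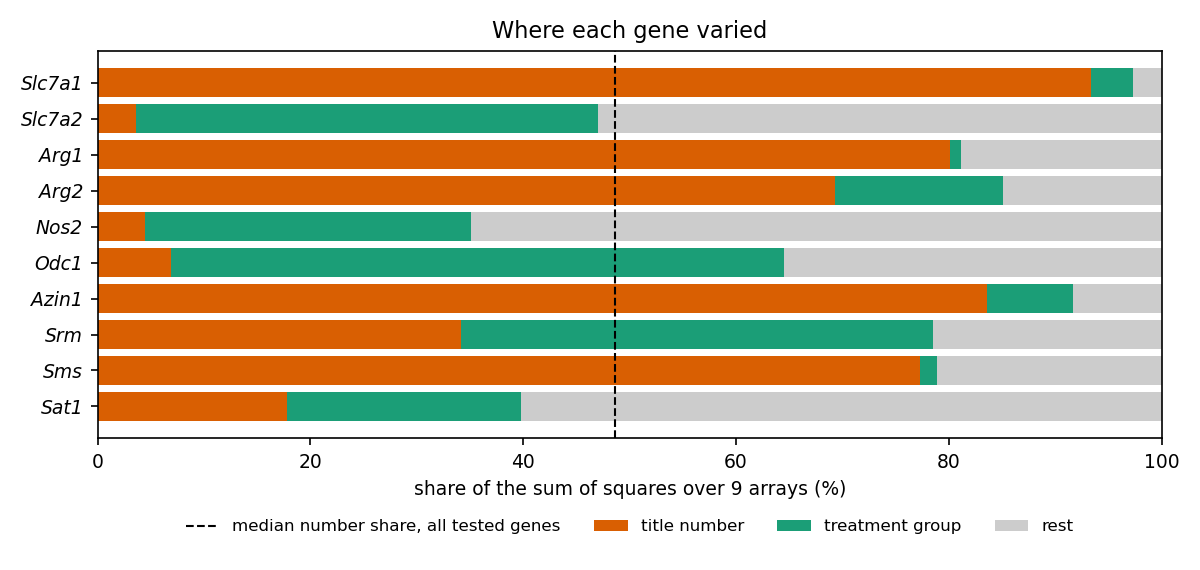
Share of each gene's sum of squares over the 9 arrays (x axis, percent) that lay between title numbers, between treatment groups and in neither. The dashed line is the median share of title number over all tested genes, 48.6%. The title number share of Slc7a1, Azin1, Arg1, Sms and Arg2 reaches past it, and that of Odc1, Slc7a2, Srm, Sat1 and Nos2 ends short of it.

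The spread of each gene over the 9 arrays can be divided into a share between title numbers, a share between treatment groups and a rest. The title number took 93.4% for Slc7a1, 83.6% for Azin1 and 77.3% for Sms, with 3.92%, 8.08% and 1.59% for the group. For Odc1 it took 6.88% and the group took 57.6%, and for Slc7a2 3.57% and 43.5%. For Srm the shares were 34.2% and 44.3%, and for Sat1 17.8% and 22.0%. No treatment comparison called any of the 7 genes. Over all tested genes the median share was 48.6% for the number and 10.6% for the group, and the number share was the higher in 76.8% of genes, against 3 of these 7. A share of a small total can be large, and the total was small for Odc1, Srm and Sat1. These spanned 0.37, 0.25 and 0.35 log2 units over the 9 arrays, and Slc7a2 spanned 0.48.

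LCN2 added on day 7 gave differences from vehicle between -0.21 and 0.10 in the 7 genes, 5 above 0 and 2 below, with a median of 0.04 against 0.003 over all genes tested. Slc7a1 was at -0.21 ± 0.36 (SE, n = 3 per group), lower in 3 of 3 same-number pairs by 0.15, 0.44 and 0.04. Its wide error holds the shift by title number: with the number as a block the error was 0.10, and the interval ran from -0.45 to 0.02. Odc1 was at 0.10 ± 0.11 and Sat1, higher in 3 of 3 pairs, at 0.07 ± 0.12. Slc7a2 was at -0.07 ± 0.12, Azin1 at 0.08 ± 0.16, Srm at 0.04 ± 0.10 and Sms at 0.04 ± 0.27. Limma called 0 of the 7 genes (adjusted p of 1.00 each) and 0% of all genes, with 0 of the 7 and 70 of all at an unadjusted p under 0.05. The groups did not overlap for 0 of the 7, against 3.17% of all genes. For this and the later comparisons, the share of all genes with 3 of 3 pairs in the same direction is not given. The labels do not say that equal numbers mark pairs.

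LCN2 from day 0 gave differences from vehicle between -0.20 and 0.12, 5 below 0 and 2 above, with a median of -0.07 against -0.015 over all genes. Slc7a2 had the largest, -0.20 ± 0.12 (interval -0.47 to 0.06), from 10.76 ± 0.12 (SD) with vehicle to 10.55 ± 0.13. It was lower in 3 of 3 pairs, by 0.48, 0.06 and 0.07, so most of the difference came from the pair numbered 1. Odc1 was at -0.11 ± 0.11, Srm at -0.07 ± 0.10 with 3 of 3 pairs lower, and Azin1 at 0.12 ± 0.16 with 3 of 3 pairs higher. Sat1 was at 0.12 ± 0.12, Slc7a1 at -0.10 ± 0.36 with 3 of 3 pairs lower, and Sms at -0.05 ± 0.27. Limma called 0 of the 7 (adjusted p of 0.999 each) and 0% of all genes, with 0 of the 7 and 142 of all at an unadjusted p under 0.05. None of the 7 had groups without overlap, against 5.49% of all genes. Among the dim genes, Nos2 was at 0.26 ± 0.18 (limma with no limit on brightness, adjusted p = 1.00). Its 3 day 0 arrays lay above every vehicle array, but only barely. The lowest day 0 array stood at 4.176 and the highest vehicle array at 4.174, far under the brightness limit. The 5.49% covers only genes above that limit. Arg2 was at 0.40 ± 0.30 with 3 of 3 pairs higher (adjusted p = 1.00).

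Setting the day 0 group against the day 7 group compares an early start at 150 ng/ml with a late start at an unstated dose. The comparisons with vehicle share the vehicle arrays, so their values are given only side by side. Odc1 had the largest difference of the 7, -0.21 ± 0.11 (interval -0.45 to 0.03), from 9.19 ± 0.07 (SD) with LCN2 from day 7 to 8.98 ± 0.09 with LCN2 from day 0. Its arrays were 9.15, 9.27 and 9.17 with the late start and 9.07, 8.99 and 8.90 with the early start, which do not overlap, while the vehicle arrays at 8.97, 9.14 and 9.18 overlapped both groups. The same-number pairs were lower by 0.08, 0.28 and 0.27. Srm was at -0.11 ± 0.10, also lower in 3 of 3 pairs. Slc7a2 was at -0.13 ± 0.12, Sms at -0.10 ± 0.27, Slc7a1 at 0.12 ± 0.36, Sat1 at 0.05 ± 0.12 and Azin1 at 0.03 ± 0.16. Limma called 0 of the 7 (adjusted p of 1.00 each) and 0% of all genes, with 0 of the 7 and 177 of all at an unadjusted p under 0.05. The groups did not overlap for 1 of the 7 and for 5% of all genes.

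**Figure D3:**
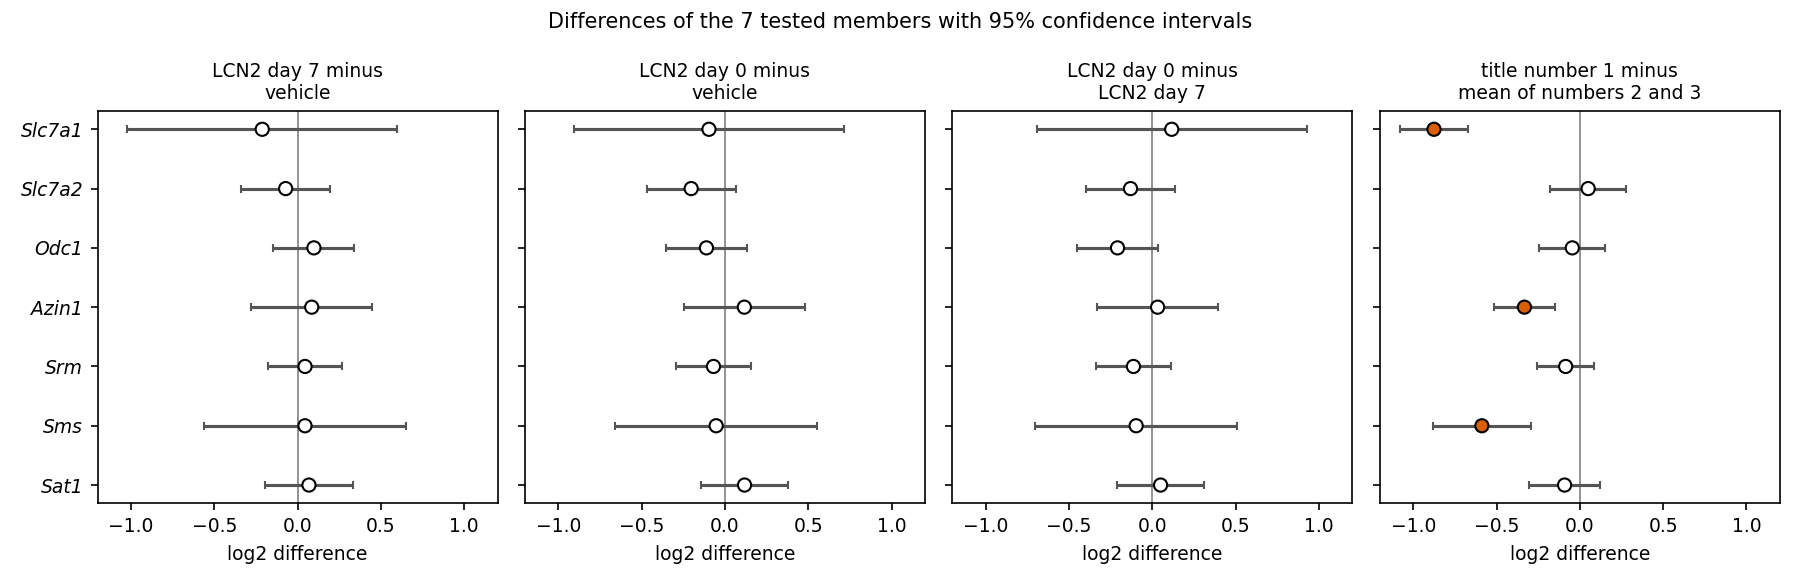
Log2 difference (x axis) of the 7 tested genes in the 3 comparisons of treatment groups and between title numbers, with 95% confidence intervals from limma. Filled points passed an adjusted p of 0.05, and open points did not. The treatment intervals come from the fit without the number as a block, so they also hold the shift by title number. The title number intervals come from the additive model of group and number. All points of the treatment comparisons are open and their intervals cross 0, while Slc7a1, Azin1 and Sms are filled and below 0 for title number 1.

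Arg1 was close between the treatment groups, at 11.64 ± 0.35 (SD, n = 3) with vehicle, 11.65 ± 0.16 with LCN2 from day 7 and 11.72 ± 0.60 with LCN2 from day 0. Its interval for LCN2 from day 0 against vehicle ran from -0.57 to 0.73, and with the title number as a block from -0.26 to 0.42. A p that misses the threshold does not show that levels were equal, and changes inside these intervals remain compatible with the data. Both intervals rest on 3 arrays a group, and the wider one also holds the shift by title number.

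The other genes of the pathway were described by the same fits. Their counts by title number stand beside the 33.2% called over all genes. By title number, 2 of 10 further polyamine genes were called, both higher on number 1: Atp13a2, a lysosomal polyamine exporter, by 0.60 ± 0.09 and Dohh, which completes the hypusine modification of Eif5a, by 0.51 ± 0.12. The Dohh call ended without the day 7 array numbered 1 (0.49, limma, adjusted p = 0.0618) or the day 0 array numbered 1 (0.41, adjusted p = 0.0923). Smox, spermine oxidase, was at 0.19 and Eif5a at -0.12, neither called. Amd2, close in sequence to Amd1, which supplies the aminopropyl donor, was at 0.15, and the probes may not tell the copies apart. Of 7 genes of S-adenosylmethionine supply and methionine salvage, 1 was called: Enoph1 fell by 0.71 ± 0.08. Mtap, which recovers the by-product of the spermidine and spermine synthases, was at -0.32 ± 0.13 (adjusted p = 0.092).

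Of 10 enzymes of arginine, ornithine and proline metabolism, Arg1 included, 6 were called, 4 lower and 2 higher on number 1, beside the 33.2% of all genes. Aldh18a1, which makes the precursor of proline and ornithine from glutamate, was lower on number 1, at -1.08 ± 0.08 (limma, adjusted p = 0.000137). Gatm, which uses arginine for creatine synthesis, was at -0.55 ± 0.09, and Oat, ornithine aminotransferase, at -0.44 ± 0.09. Prodh was at 0.33 ± 0.10 and Gamt at 0.28 ± 0.09, both called higher; Oat, Prodh and Gamt in this contrast were chosen for naming with their values known. In the treatment comparisons 0 of these 10 genes were called, and the largest differences were -0.26 ± 0.17 for Prodh with LCN2 from day 7, -0.23 ± 0.17 for Prodh with LCN2 from day 0, and -0.26 ± 0.21 for Oat between the LCN2 groups.

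Of 9 further amino acid transporters, 3 were called by title number, beside 33.2% of all genes, so this count is not particular to transporters. Slc7a8 and Slc7a5, carriers of large neutral amino acids, fell by 0.88 ± 0.08 and 0.86 ± 0.12, while Slc7a11, the cystine and glutamate exchanger, was higher by 1.67 ± 0.17. Slc3a2, the heavy chain shared by several of these carriers, was at -0.07 and was not called. Of 6 genes of nitric oxide synthesis and its cofactor, 1 was called, beside the same 33.2%. This was Gch1, the first enzyme of tetrahydrobiopterin synthesis, higher by 1.15 ± 0.13. In the treatment comparisons none of these transporter, cofactor, polyamine or salvage genes was called. Their differences ran from -0.21 ± 0.47 for Gch1 to 0.20 ± 0.36 for Slc7a5 with LCN2 from day 7. With LCN2 from day 0 the lowest was -0.26 ± 0.21 for Pts, which acts after Gch1 in cofactor synthesis. Between the LCN2 groups they ran from -0.23 ± 0.17 for Oaz2, another antizyme, to 0.25 ± 0.16 for Azin2, another antizyme inhibitor.

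**Figure D4:**
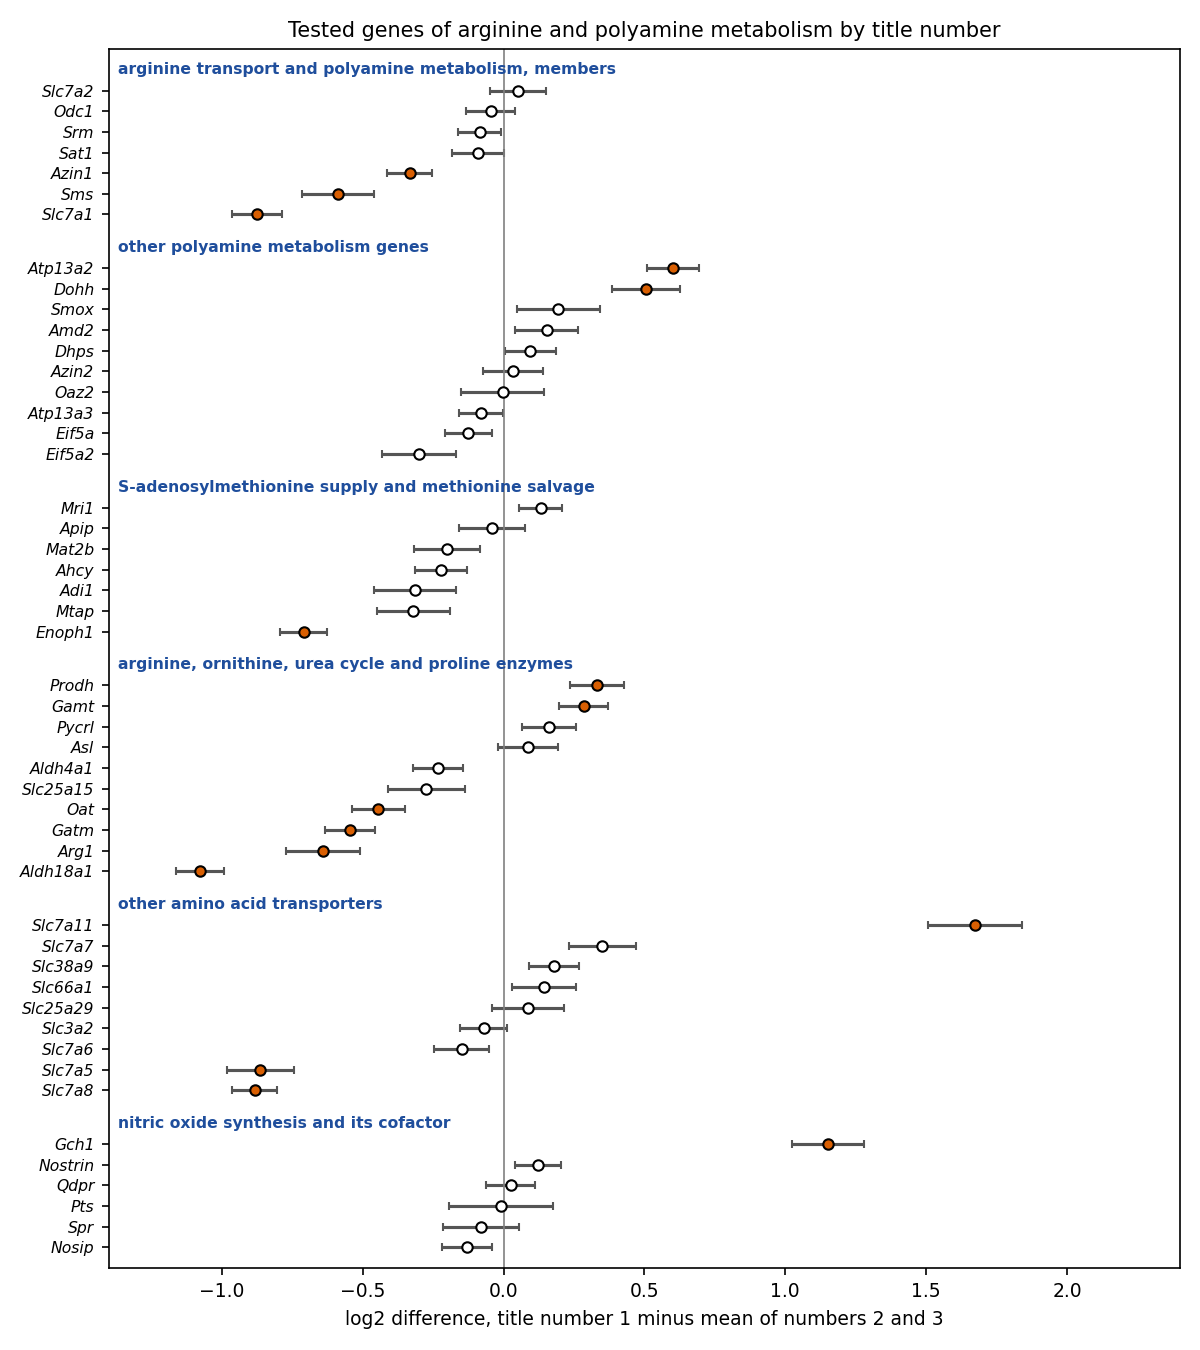
Log2 difference of title number 1 from the mean of numbers 2 and 3 (x axis) with its SE for each tested gene of 6 lists. Filled points passed an adjusted p of 0.05. Points lie on both sides of 0 within most lists, from -1.08 for Aldh18a1 to 1.67 for Slc7a11.

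Other gene groups are given by title number beside these results. Over all genes, 22.1% were called lower and 11% higher on number 1. Genes of the ATF4 response to amino acid stress had 9 of 12 called, all 9 lower on number 1, with a median of -0.84 against -0.06 over all genes tested. Asns, asparagine synthetase, was at -1.94 ± 0.12 and Phgdh, the first enzyme of serine synthesis, at -2.01 ± 0.24. The mean level of the 14 genes with a probe set was 7.68 to 7.79 on the arrays numbered 1 and 8.47 to 8.70 on the others. Cell cycle genes had 29 of 32 called lower (median -0.90, mean level 7.85 to 8.47 against 8.87 to 9.17). Among MYC and nucleolar genes, 3 of 14 were called lower and 1 higher, Myc itself at 0.50 ± 0.07. Of 17 genes of IL-4 activation, a list without Arg1, 7 were called higher on number 1 and 2 lower, with a median of 0.006. Among them, the chemokine Ccl24 was at 2.44 ± 0.18, the secreted lectin Chil3 at 1.51 ± 0.09, the IL-4 receptor chain Il4ra at 1.21 ± 0.08 and the receptor Flt1 at -1.43 ± 0.10. Neutrophil markers had 7 of 8 called lower, with a mean level over all 10 named of 5.64 to 6.34 on number 1 against 6.91 to 7.34. Monocyte markers had 4 of 5 called lower and 1 higher (7.06 to 7.36 against 7.73 to 8.08), and progenitor markers 3 of 4 lower and 1 higher (5.48 to 5.64 against 5.76 to 5.96). Of osteoclast markers, 5 of 7 were called higher and 1 lower (8.28 to 8.75 against 7.34 to 7.95), and of dendritic cell markers 3 of 4 higher (6.21 to 6.40 against 5.95 to 6.18). Macrophage markers had 3 of 8 called higher and 1 lower (10.54 to 10.63 against 10.35 to 10.50). Single markers of other lists were also called higher: Tfrc at 1.11 ± 0.12, Pf4 at 0.67 ± 0.09 and Cxcl12 at 0.65 ± 0.14. Tfrc was the only erythroid marker tested. Pf4 was 1 of 3 megakaryocyte markers tested and Cxcl12 1 of 3 stromal markers. In each of these 2 lists the other 2 markers were lower on number 1 and not called. The part of these groups in the differences of Slc7a1, Sms, Azin1 and Arg1 was not tested.

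The genes whose levels were most like those of Odc1, Srm and Slc7a2 were sought after the mean of each title number was subtracted, which leaves the differences between treatment groups in. For each gene the 5 highest of 10041 correlations over the same 9 arrays were taken, so the values describe likeness only. For Odc1 they were Ddx24, Cmtr1, Psen2, Dennd1b and Riok3, with Pearson's r between 0.96 and 0.99. For Srm they were Fbxo42, Arfgap3, Kdm5a, Gsdme and Spg7 (0.97 to 0.99), and for Slc7a2 Polr3g, Kri1, Naaa, Creld2 and Ndufaf4 (0.95 to 0.99). None of the lists held another of the arginine and polyamine genes that were bright enough to be tested. Arg2 and Nos2 lay below the brightness limit and were not among the genes compared.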

How the data were processed

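RNA of 9 macrophage samples was measured on expression arrays. The deposited table holds log2 expression levels of 22203 probe sets. Per the submitters' processing notes, the authors used RMA through the oligo package; RMA corrects background, makes the arrays' distributions alike and summarises each probe set on the log2 scale; versions are not given in the sources used here. Array medians lay between 5.60 and 5.69. Of the probe sets, 19572 carried 1 gene symbol and 2631 none, and all 19572 were matched by Entrez identifier to RefSeq (GRCm38.p6). The probe set with the highest mean was kept per gene, and genes below the median probe-set mean were left out.

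Groups were compared with limma 3.58.1 (R 4.3.3), with 1 mean per group over all 9 arrays, and title numbers in an additive model of group and number. Two-sided p-values were adjusted (Benjamini-Hochberg) across the 10042 genes, with a threshold of 0.05. The number of arrays limits the precision. The members, the gene lists and the contrast of number 1 were chosen with earlier results of these data known. Named genes were the members, Arg1, from each pathway list the 2 largest differences per comparison and up to 3 called genes with the smallest adjusted p, and the 5 genes most like Odc1, Srm and Slc7a2; others are marked where named, or given as values only. The deviations of same-numbered arrays from their group means correlated at 0.16 to 0.82 in all 9 pairs, which meets the rule set for pairing, from the data and not from the labels. The printed treatment values come from the fit without pairing, and the fit with the number as a block is an alternative; numbers 2 and 3 of different groups also correlated, at 0.20 to 0.69. Alternatives were the number as a block, 2 other brightness limits, median centring, a variance trend, array weights, averaged probe sets, only the groups compared, no group term, and each array left out. A comparison of protein sequences was not run.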

Additional observations from a re-analysis of the deposited data

How the results depend on the processing

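The replicate block on title number left 0 genes and 0 of the 7 members called in each treatment comparison, as without it, and changed no call. The fits without the block hold the shift by title number in their error. With the block, genes at an unadjusted p under 0.05 went from 70 (0.697%) to 259 (2.58%) for LCN2 from day 7. For LCN2 from day 0 they went from 142 (1.41%) to 497 (4.95%), and between the LCN2 groups from 177 (1.76%) to 539 (5.37%). The SE became 0.15 for Sms and 0.09 for Azin1. Genes called by title number 1 came to 3333, and to 1777 to 3612 with each array left out in turn (1777 without the vehicle array numbered 1, 1923 without the day 0 array numbered 1). Members called came to 1 to 3, with 1 (Slc7a1) without that vehicle array. Slc7a1 and Arg1 passed in all 9 of these fits. Mtap passed with the brightness limit at the 75th percentile (adjusted p = 0.0494), a variance trend (0.0337) or array weights (0.0118), or without the day 7 array numbered 2 (-0.42, 0.0134), and the cause was not tested. Array weights turned the sign of Sms (-0.17), Azin1 (-0.000118) and Arg1 (-0.15) for LCN2 from day 7, Oat (0.021) for LCN2 from day 0, Sms (0.0029) and Gch1 (-0.088) between the LCN2 groups, and Odc1 (-0.012) for number 2 against 3. The estimation of array weights stopped before it converged. Median centring turned Azin1 between the LCN2 groups (-0.0069). None of these values passed the test. With each array left out in turn, the ranges that crossed 0 for LCN2 from day 7 against vehicle were Slc7a1 -0.52 to 0.069, Srm -0.0048 to 0.095, Sms -0.27 to 0.23, Azin1 -0.070 to 0.18, Arg1 -0.18 to 0.13, Slc7a5 -0.084 to 0.38, Slc25a29 -0.27 to 0.0067 and Gch1 -0.56 to 0.12. For LCN2 from day 0 against vehicle they were Slc7a1 -0.41 to 0.19, Sms -0.36 to 0.13, Azin1 -0.038 to 0.21, Arg1 -0.13 to 0.42, Enoph1 -0.38 to 0.13 and Oat -0.26 to 0.050. Between the LCN2 groups they were Slc7a1 -0.17 to 0.40, Sms -0.24 to 0.066, Sat1 -0.026 to 0.15, Azin1 -0.052 to 0.13, Arg1 -0.15 to 0.41, Enoph1 -0.36 to 0.10, Slc25a15 -0.0015 to 0.28, Slc7a5 -0.48 to 0.17 and Gch1 -0.37 to 0.45. For number 1 against numbers 2 and 3 they were Odc1 -0.13 to 0.027, Slc7a2 -0.027 to 0.18 and Sat1 -0.18 to 0.0100. For number 2 against number 3 they were Odc1 -0.0080 to 0.12, Slc7a2 -0.078 to 0.078, Srm -0.056 to 0.022, Sms -0.17 to 0.10, Sat1 -0.10 to 0.051 and Arg1 -0.060 to 0.18. The causes of these turns of sign were not tested, beyond the loss of an array from a group of 3. Signal over background limits Arg2 and Nos2.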

Other observations

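Over the 9 arrays, after the mean of each title number was subtracted, the 21 pairs of the 7 tested genes had Pearson's r between -0.71 (Slc7a2 with Azin1) and 0.65 (Odc1 with Srm). These values describe the same 9 arrays, which share their title numbers and groups, and carry no test.

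Slc7a1 was lower on number 2 than on number 3 in all 3 groups, by 0.06 with vehicle, 0.46 with LCN2 from day 7 and 0.17 with LCN2 from day 0.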
